A study of Mus musculus with 3 samples.

Results

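The respiratory chain genes were the 103 genes of the expression matrix whose symbols begin with Nduf (a, b, c, s or v), Cox4 to Cox8, Uqcr, Sdh (a to d) or Atp5, or name a mitochondrially encoded subunit (mt-Nd, mt-Co, mt-Cytb or mt-Atp), and that had at least 100 UMIs (unique molecular identifiers, each counting 1 captured RNA molecule) over all libraries. The symbols picked out 107 of 32285 genes, and 4 fell below the minimum: Cox7b2, Cox8b and Cox8c had 0 UMIs and Ndufa4l2 had 20. The genes just above it were Cox7a1 with 337 UMIs, Cox6b2 with 510, Cox4i2 with 583 and Cox6a2 with 652. In all, 90 members were nuclear genes and 13 were encoded by mitochondrial DNA, and the 2 kinds are described apart. By complex, 37 nuclear and 7 mitochondrial genes belonged to complex I, 8 nuclear genes were complex I assembly factors, 4 belonged to complex II, 8 and 1 to complex III, 16 and 3 to complex IV, and 17 and 2 to ATP synthase. Ndufa4 was counted with complex IV.

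Spleen B cells came from female wild-type BXD2 mice, a strain that develops lupus-like autoimmunity. One group, called IL-4+R848 here, was given interleukin-4 (5 µg, held in a long-acting complex with 25 µg of anti-IL-4 antibody) into the peritoneum, and the other, called R848, was given the 25 µg of antibody alone. At 2 hours after this injection both groups were given R848, which activates the RNA sensor TLR7, in a dose of 40 µg for each 20 g of mouse, and the whole treatment was repeated after 2 days and followed by harvest after 2 more days. There was no group without R848 or without the antibody. The labels give 3 mice per treatment and 3 libraries (sets 1 to 3), each holding hashtagged cells of both treatments, but do not tie a mouse to a set, so the p-values measure the spread between sets.

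The respiratory chain moves electrons from NADH, through complex I, and from succinate, through complex II, to coenzyme Q, and on through complex III, cytochrome c and complex IV to oxygen, while ATP synthase uses the proton gradient that complexes I, III and IV build. Mitochondrial DNA encodes core subunits of complexes I, III, IV and ATP synthase, and the nucleus encodes all other subunits, including every subunit of complex II, so that the complexes need RNA from both genomes. Resting B cells are small, and both germinal center B cells, which divide rapidly, and plasmablasts, which secrete antibody, are known for a large demand on mitochondria.

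After quality filters, R848 contributed 7146 cells to set 1, 5641 to set 2 and 7530 to set 3. The numbers for IL-4+R848 were 5125, 4579 and 5081. Median depths were 5094, 5932 and 4446 UMIs per R848 cell and 6208, 6995 and 5199 per IL-4+R848 cell, deeper with IL-4+R848 in every set. Barcodes with both hashtags (8.28% to 10.8% of a set) were removed, no other doublet caller was run, and 168 to 209 barcodes were shared by any pair of sets. Clustering without the members or the pathway lists gave 20 clusters, which were named from marker lists. Follicular-like cells numbered 14693, activated-like 4967, transitional-like 3633, plasmablast-like 3024, marginal zone-like 1814 and germinal center-like 1710. A cluster called the Zbtb32 cluster here, with S100a6, Anxa2, Fscn1 and Zbtb32 as its leading genes, held 1620 cells, a cycling-like cluster 806, and 2835 cells stayed unnamed. The names are rebuilt from expression. Of the follicular-like clusters, cluster 0 (5713 cells) was 7.05% IL-4+R848 cells, whereas cluster 1 (5157 cells) was 97.09% and cluster 2 (3823 cells) 99.87%, so that different clusters held the class in the 2 treatments. In clusters 1 and 2, 0 markers of the highest-scoring list were raised. The follicular list scored highest in cluster 1 (a mean of 0.37 on the log2 scale over the median of clusters). In cluster 2 the transitional list (0.31) scored above the follicular list (0.14), so the marker scores do not back the name of cluster 2. Levels of follicular markers are given in CPM (UMI counts scaled to a common total, here without immunoglobulin genes). Klf2, a factor of resting B cells, stood at 1427.3, 946.8 and 1208.1 CPM in clusters 0, 1 and 2 against 361.5 CPM in plasmablast-like cluster 8. Other follicular markers were lower in clusters 1 and 2 than in cluster 0: Ighd at 306.0 and 221.5 against 427.4 CPM, Fcmr at 501.5 and 575.9 against 1148.0, Ccr7 at 149.8 and 85.8 against 357.5, and Cr2 at 45.5 and 10.9 against 59.7. Fcer2a, the gene of CD23, which IL-4 is known to induce, was at 235.3 and 401.1 against 268.0 CPM. The treatment comparison in this class therefore also compares clusters, and it is given without cluster 2 as well.

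The germinal center-like cells were 1 cluster whose leading genes included 5 cycling and 3 germinal center markers. It held Mki67, a proliferation marker, at 586.7 CPM. Plasmablast-like cluster 15 was led by 3 plasmablast and 3 cycling markers.

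Nuclear and mitochondrial members differed in opposite directions from follicular-like cells in the germinal center-like and plasmablast-like states. In follicular-like R848 cells the nuclear members took 1.85%, 1.91% and 1.90% of the UMIs outside immunoglobulin genes in sets 1 to 3. In germinal center-like R848 cells they took 3.10%, 3.10% and 3.37%. In plasmablast-like R848 cells they took 3.10%, 3.14% and 3.40%. Every set of both states lay above every follicular-like set, and the cycling-like cluster (2.54%, 2.57% and 2.63%) and the Zbtb32 cluster (2.17%, 2.17% and 2.29%) lay in between. Activated-like cells (1.88%, 1.93% and 1.94%), marginal zone-like cells (1.84%, 1.84% and 1.88%) and transitional-like cells (2.00%, 2.07% and 2.11%) were close to or slightly above the follicular-like level. The activated-like class joins clusters on either side of follicular-like cluster 0 (1.84%, 1.90% and 1.89%, both treatments together): cluster 4 was at 1.72%, 1.74% and 1.77% and cluster 9 at 2.27%, 2.22% and 2.30%.

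In germinal center-like and plasmablast-like cells the 13 mitochondrial members went the other way. They took 0.805%, 1.04% and 0.844% of these UMIs in follicular-like R848 cells and 0.706%, 0.902% and 0.593% in germinal center-like R848 cells. In plasmablast-like R848 cells they took 0.654%, 0.828% and 0.604%. Set 2 was the highest in each of these states, so the ranges over sets overlap, but within each set the follicular-like share was the highest of the 3. The ratio of mitochondrial to nuclear UMIs removes the common denominator. It was 0.436, 0.545 and 0.444 in follicular-like R848 cells, 0.228, 0.291 and 0.176 in germinal center-like R848 cells and 0.211, 0.264 and 0.178 in plasmablast-like R848 cells, with no overlap between the first and the other two.

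**Figure D1:**
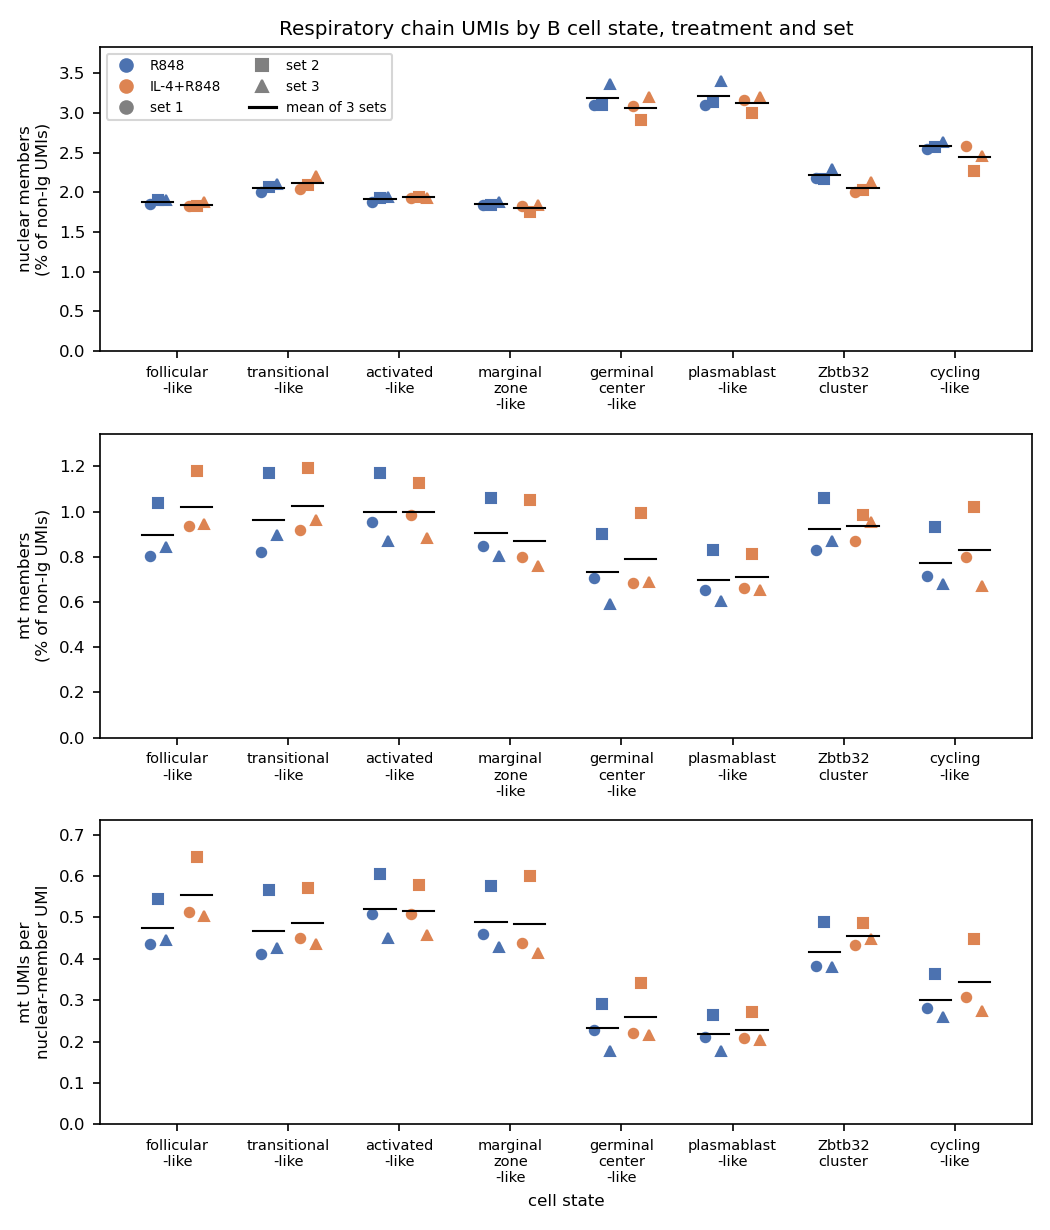
Nuclear members (percent of UMIs outside immunoglobulin genes), mitochondrial members (same unit) and the ratio of the 2 sums in each B cell state, with 1 point per set and treatment and bars at the mean of 3 sets. The germinal center-like and plasmablast-like states have the highest nuclear shares and the lowest ratios, with R848 ratios of 0.176 to 0.291 against 0.436 to 0.545 in follicular-like cells.

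A lower share was not a lower number per cell. Germinal center-like R848 cells held 102, 149 and 93.8 mitochondrial member UMIs per cell, and follicular-like R848 cells held 32.9, 54.5 and 31.0. For the nuclear members the numbers were 448, 513 and 533 UMIs per cell against 75.5, 100 and 69.8. Both kinds were therefore higher per germinal center-like cell in every set, the nuclear kind by more. Plasmablast-like R848 cells held 327, 383 and 362 nuclear and 68.9, 101 and 64.4 mitochondrial UMIs per cell. Total UMIs per cell were 14700 to 16818 in germinal center-like, 17902 to 20077 in plasmablast-like and 3741 to 5343 in follicular-like R848 cells, and larger cells and deeper capture cannot be told apart here.

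The question of which single genes carried these shares was put to each state against follicular-like cells of the same R848 libraries, with set as a block, by edgeR's quasi-likelihood test over all genes with Benjamini-Hochberg adjustment; a gene rose or fell where its adjusted p was under 0.05. The state comparisons all use the same follicular-like sums and are not independent of each other. Levels from here on are in CPM, the UMI counts set to 1 common total after scaling each library total by edgeR's trimmed mean of M values. In germinal center-like cells 75 of 88 tested nuclear members rose and 4 fell, beside 36.1% of all 10590 genes that rose and 35.8% that fell, 71.8% in either direction. The nuclear members' median difference was 0.63 on the log2 scale and that of all genes was -0.02. Of the mitochondrial members 0 of 13 rose and 12 fell, with a median of -0.56.

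By complex, the nuclear members that rose in germinal center-like cells were 32 of 37 in complex I (median 0.60), 6 of 8 assembly factors (0.33), 3 of 4 in complex II (0.63), 6 of 8 in complex III (0.67), 13 of 14 tested in complex IV (0.76) and 15 of 17 in ATP synthase (0.89), all as log2 differences. The 13 of complex IV include Cox7a1, with 8, 9 and 7 UMIs in follicular-like and 19, 18 and 11 in germinal center-like R848 sums. Cox7a1 entered this test through the germinal center-like cells, where it is higher. Its rise therefore adds no support to that count or to the total of nuclear members that rose. In plasmablast-like cells 71 of 89 nuclear members rose and 5 fell, beside 36.0% and 36.9% of all 10756 genes (72.9% in either direction), with a median of 0.73 against -0.03 for all genes. Those that rose were 33 of 37 in complex I (0.86), 3 of 8 assembly factors (0.13), 3 of 4 in complex II (0.65), 7 of 8 in complex III (0.79), 12 of 15 in complex IV (0.79) and 13 of 17 in ATP synthase (0.88). The counts of 71 and 12 include Cox4i2 and Cox6a2, which had 0 to 2 UMIs in each follicular-like R848 sum. They entered the test through the plasmablast-like cells, where they are high, so their rise adds no support to these counts. Of the mitochondrial members 0 of 13 rose and 11 fell in plasmablast-like cells, with a median of -0.54. About 40% of the UMIs of these cells came from immunoglobulin genes; on raw library totals, which this RNA dilutes, 37 nuclear members rose and 28 fell, beside 19.6% and 63.0% of all genes, and the median of all genes moved to -0.69.

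**Figure D2:**
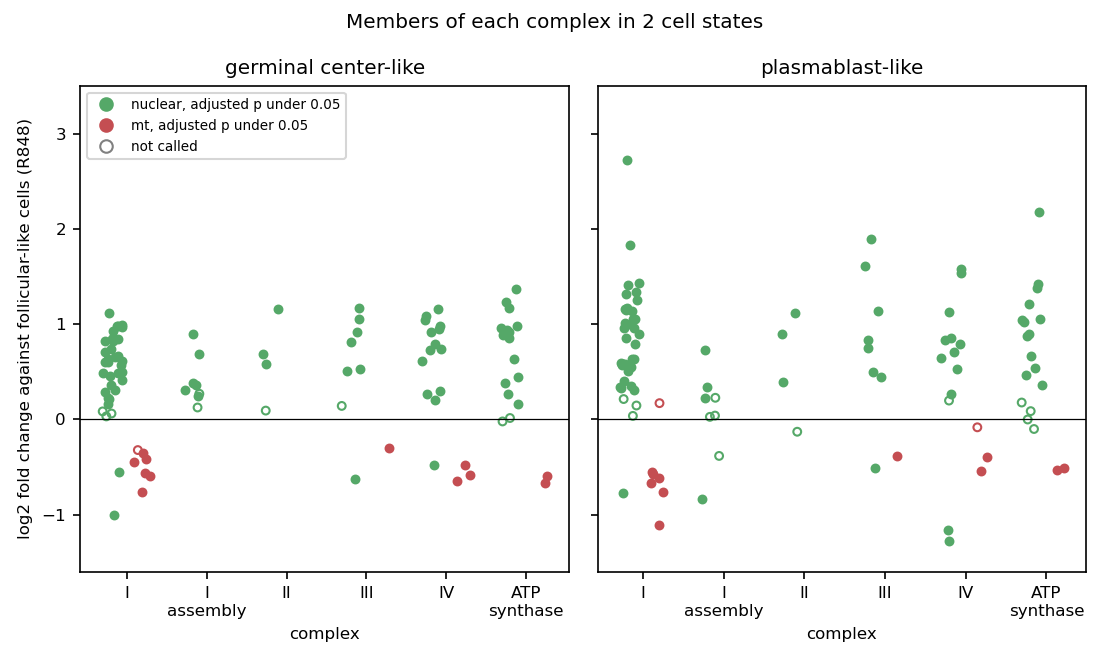
Log2 difference from follicular-like cells (R848, set as block) for each tested member in germinal center-like and plasmablast-like cells, grouped by complex, with nuclear and mitochondrial members in separate colours and Cox4i2 and Cox6a2 left out because their counts in follicular-like cells are near 0. Most nuclear members lie above 0 in every complex, and the 13 mitochondrial members lie below 0 apart from mt-Nd6 at 0.17 in plasmablast-like cells.

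Complex I held the largest rise of a nuclear member that was well counted in both states, and several falls. Ndufa1, a small accessory subunit with a membrane-spanning helix (X chromosome, minus strand), stood at 115.1, 126.5 and 120.7 CPM in follicular-like and 833.0, 742.8 and 857.0 CPM in plasmablast-like R848 cells. The groups did not overlap, and the log2 difference was 2.72 (SE 0.108, edgeR adjusted p = 4.58e-06). In germinal center-like cells Ndufa1 was at 206.9, 209.8 and 241.0 CPM, a log2 difference of 0.85. Ndufs5, another accessory subunit, rose from 90.21, 97.99 and 99.31 CPM to 324.0, 332.7 and 386.1 CPM in plasmablast-like cells, a log2 difference of 1.83.

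Ndufa6, an accessory subunit of the LYR family, fell where most of its complex rose. It stood at 544.5, 535.3 and 595.7 CPM in follicular-like, 270.9, 272.2 and 298.2 CPM in germinal center-like and 323.0, 314.8 and 355.4 CPM in plasmablast-like R848 cells. All 3 sets of each state lay below all 3 follicular-like sets, with log2 differences of -1.003 (SE 0.0561, edgeR adjusted p = 6.72e-07) and -0.78 (SE 0.0881, adjusted p = 0.000335). Ndufa3, also an accessory subunit, fell in germinal center-like cells (105.5, 110.9 and 129.2 CPM against 162.5, 169.2 and 171.0; log2 -0.56) and rose in plasmablast-like cells (246.8, 239.3 and 274.5 CPM; log2 0.57). The assembly factor Ndufaf5 fell in plasmablast-like cells by 0.83 on the log2 scale at levels of 5.009 to 12.7 CPM.

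Of the mitochondrial subunits of complex I, mt-Nd2 differed most. It stood at 354.7, 482.2 and 370.9 CPM in follicular-like, 251.2, 296.6 and 174.9 CPM in germinal center-like and 179.8, 240.6 and 153.6 CPM in plasmablast-like R848 cells. Both states lay below follicular-like cells without overlap, with log2 differences of -0.77 (SE 0.103, edgeR adjusted p = 0.000172) and -1.11 (SE 0.107, adjusted p = 0.000161). In plasmablast-like cells mt-Nd1 (-0.77), mt-Nd3 (-0.67), mt-Nd4 (-0.62), mt-Nd4l (-0.57) and mt-Nd5 (-0.55) also fell on the log2 scale. The exception was mt-Nd6, the subunit encoded on the other strand of mitochondrial DNA, at 7.987, 13.05 and 11.78 CPM in follicular-like cells and 9.613, 14.36 and 13.46 CPM in plasmablast-like cells. Its groups overlapped (log2 0.17, adjusted p = 0.227), and in germinal center-like cells its difference was -0.32 (adjusted p = 0.0872). The annotation places mt-Nd4l and mt-Nd4 partly over each other on one strand and mt-Nd6 opposite mt-Nd5, and whether the counting used strand is not given in the sources used here, so reads of such pairs may not be separable.

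Complex II, which oxidises succinate and links the chain to the TCA cycle, rose in 3 of its 4 genes in both states. Sdhb, the iron-sulfur subunit, stood at 119.4, 134.8 and 136.2 CPM in follicular-like and 291.3, 282.1 and 304.7 CPM in germinal center-like R848 cells, without overlap (log2 1.16). In plasmablast-like cells Sdhb was at 233.1, 238.2 and 267.5 CPM (log2 0.90). The membrane anchor Sdhc rose by 0.58 and 1.12 and the other anchor, Sdhd, by 0.69 and 0.39 (log2, germinal center-like and plasmablast-like). Sdha, the flavoprotein subunit that holds the succinate site, did not pass the test: it was at 120.7, 111.2 and 111.9 CPM in follicular-like, 128.9, 117.8 and 122.1 in germinal center-like and 106.6, 102.5 and 110.1 CPM in plasmablast-like cells, with log2 differences of 0.09 (adjusted p = 0.19) and -0.13 (adjusted p = 0.196).

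In complex III, Uqcrq, a small subunit that binds near cytochrome b, stood at 147.4, 174.4 and 165.5 CPM in follicular-like and 572.4, 582.6 and 691.0 CPM in plasmablast-like R848 cells. The groups were far apart (log2 1.90, SE 0.106, edgeR adjusted p = 1.57e-05), and in germinal center-like cells the log2 difference was 0.92. Uqcr11 rose by 1.17 and 1.61 (log2) in germinal center-like and plasmablast-like cells and the core protein Uqcrc1 by 0.82 and 0.74. Uqcrh, the hinge protein that binds cytochrome c1, fell in both: it was at 769.2, 781.2 and 847.6 CPM in follicular-like, 497.2, 504.7 and 556.7 in germinal center-like and 578.6, 544.3 and 590.1 CPM in plasmablast-like cells (log2 -0.63 and -0.51). Uqcrh has a gene on the opposite strand, Gm12854, at its locus. The mitochondrial subunit mt-Cytb, cytochrome b itself, fell by 0.31 in germinal center-like and 0.39 in plasmablast-like cells on the log2 scale, with overlapping ranges over sets.

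In complex IV the rises were led by nuclear subunits around the catalytic core. Cox6a1 stood at 199.1, 214.4 and 215.7 CPM in follicular-like, 448.1, 467.2 and 502.8 in germinal center-like and 603.0, 618.2 and 691.7 CPM in plasmablast-like R848 cells, with log2 differences of 1.16 and 1.58 and no overlap. Ndufa4 rose by 0.95 and 1.54 and Cox6c by 0.92 and 0.71 (log2). The core subunits are mitochondrial. Of these mt-Co1, which holds the site of oxygen reduction, fell in germinal center-like cells (log2 -0.58) but in plasmablast-like cells was at 1449, 1637 and 1345 CPM against 1391, 1772 and 1468 CPM in follicular-like cells, overlapping ranges with a log2 difference of -0.08 (adjusted p = 0.372). The other core subunits, mt-Co2 and mt-Co3, fell in plasmablast-like cells by 0.39 and 0.54 on the log2 scale.

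Cox7a2l, whose product joins complexes III and IV into supercomplexes, fell in both states, against the rise of its paralog Cox7a2, a subunit of complex IV. Cox7a2l was at 267.2, 284.2 and 264.1 CPM in follicular-like, 189.4, 199.7 and 198.7 in germinal center-like and 116.6, 111.0 and 114.0 CPM in plasmablast-like R848 cells, in that order without overlap (log2 -0.48 and -1.28; the latter with SE 0.0949 and edgeR adjusted p = 5.14e-05). Cox7a2 was at 223.8, 243.9 and 251.1 CPM in follicular-like, 366.1, 379.3 and 452.8 in germinal center-like and 505.4, 491.3 and 603.9 CPM in plasmablast-like cells (log2 0.72 and 1.13). The remaining paralog, Cox7a1, stood near 1 CPM in follicular-like cells.

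**Figure D3:**
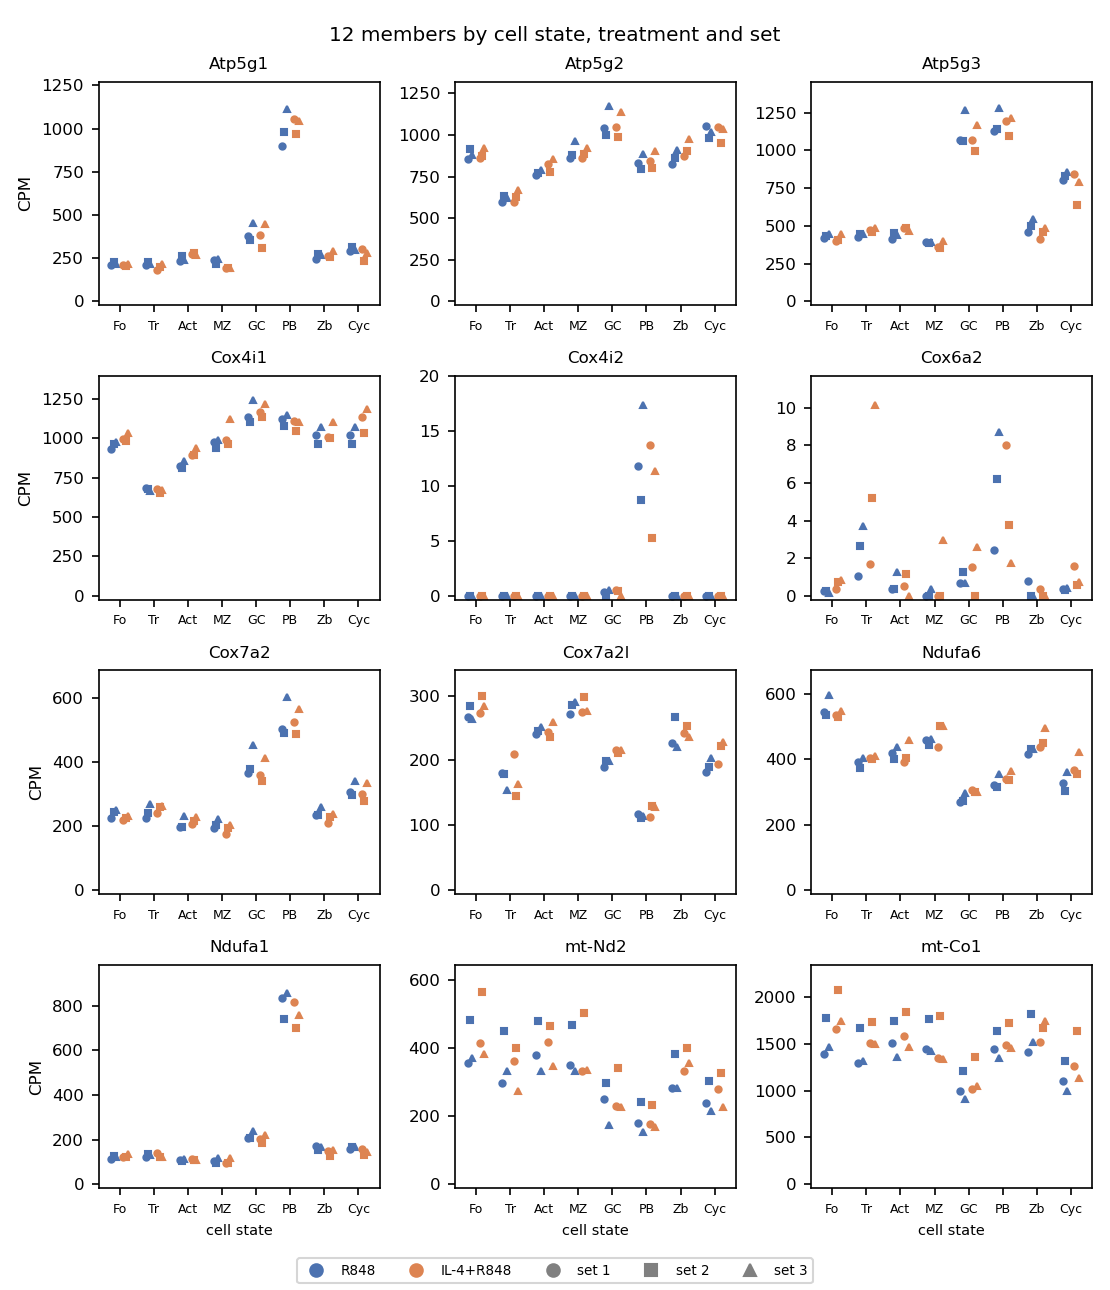
CPM of 12 members by set in each state, R848 and IL-4+R848 (Fo follicular-like, Tr transitional-like, Act activated-like, MZ marginal zone-like, GC germinal center-like, PB plasmablast-like, Zb Zbtb32 cluster, Cyc cycling-like). Ndufa1 and Atp5g1 are high in plasmablast-like cells (742.8 to 857.0 and 899.4 to 1111 CPM with R848), and Cox7a2l is lowest there.

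Isoforms of complex IV that are known from other tissues were seen in few cells. Cox4i2, the alternative form of Cox4 known from lung and hypoxic cells (chr2:152754173-152765037, plus strand), had 87, 59 and 175 UMIs in plasmablast-like R848 cells of sets 1 to 3, in 48 of 681, 31 of 520 and 103 of 936 cells. These are shares of 7.05% (exact 95% interval 5.24 to 9.24), 5.96% (4.09 to 8.36) and 11.004% (9.07 to 13.2), where intervals cover counting error only. With IL-4+R848, 47 of 450, 7 of 188 and 22 of 249 plasmablast-like cells held a UMI. The follicular-like, transitional-like, activated-like, marginal zone-like, Zbtb32 and cycling-like cells had 0 UMIs in every set and treatment; in the 1833, 1623 and 2009 follicular-like R848 cells this allows up to 0.201%, 0.227% and 0.183% of cells with a UMI (exact interval). Median depths were 17161 to 19354 UMIs in plasmablast-like and 3519 to 5034 in follicular-like R848 cells; the cycling-like R848 cells, at 11321 to 15857, had 0 as well. With 3 counts per library as the floor, Cox4i2 was at least 30.3, 26.3 and 43.2-fold higher in plasmablast-like than in follicular-like R848 cells, as a share of the UMIs outside immunoglobulin genes. The germinal center-like R848 cells had 3, 0 and 3 UMIs.

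Within the plasmablast-like class, with both treatments pooled, Cox4i2 had 123, 57 and 146 UMIs in cluster 8, 13, 4 and 4 in cluster 10, and 26, 12 and 58 in the dividing cluster 15. Its paralog Cox4i1, the common form, stood at 931.8, 963.7 and 977.1 CPM in follicular-like and 1120, 1077 and 1150 CPM in plasmablast-like cells, a log2 difference of 0.20 (adjusted p = 0.0598), and rose by 0.27 in germinal center-like cells. Cox6a2, the heart and muscle form of Cox6a, had 18, 42 and 88 UMIs in 7, 11 and 24 plasmablast-like R848 cells and 2, 2 and 1 UMIs in follicular-like R848 cells. With IL-4+R848 the plasmablast-like cells had 44, 10 and 5 UMIs and the follicular-like cells 7, 15 and 14. Its gene lies opposite Itgad on chromosome 7. Cox8a, the common form of Cox8, rose by 0.30 and 0.27 (log2) in germinal center-like and plasmablast-like cells, and Cox8b had 0 UMIs.

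In ATP synthase, Atp5b, the catalytic beta subunit, rose from 388.2, 386.1 and 360.8 CPM in follicular-like to 916.5, 846.7 and 930.4 CPM in germinal center-like R848 cells (log2 1.24, SE 0.0648, edgeR adjusted p = 4.55e-07), and it rose by 1.05 in plasmablast-like cells. Atp5j, coupling factor 6, rose by 1.17 and 1.22, and Atp5e, the epsilon subunit, by 0.16 and 0.36 (log2). The mitochondrial subunits fell: mt-Atp6, part of the proton channel, by 0.60 and 0.54 and mt-Atp8 by 0.67 and 0.51 on the log2 scale.

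The c-ring of ATP synthase, the rotor that protons turn, is built from 1 mature protein that 3 nuclear genes encode with different import sequences, and these genes did not move together. Atp5g1 (chr11:96068852-96075670, minus strand) was at 207.7, 225.9 and 214.8 CPM in follicular-like, 375.9, 356.0 and 455.3 in germinal center-like and 899.4, 980.8 and 1111 CPM in plasmablast-like R848 cells, with log2 differences of 0.85 and 2.18 (SE 0.0825 and 0.1; edgeR adjusted p = 2.05e-05 and 7.25e-06). Atp5g3 was at 421.1, 435.5 and 442.6 CPM in follicular-like and 1067, 1065 and 1265 CPM in germinal center-like cells (log2 1.37, SE 0.0645, adjusted p = 2.39e-07), the largest rise of a tested nuclear member there, and rose by 1.42 in plasmablast-like cells. Atp5g2 was at 856.5, 917.9 and 876.8 CPM in follicular-like and 834.3, 795.7 and 882.6 CPM in plasmablast-like cells. Its ranges overlapped there (log2 -0.10, adjusted p = 0.321), and it rose by 0.26 in germinal center-like cells.

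The promoter sequences of the c-ring genes and of Ndufa1 are shown because the c-ring genes share a mature protein but not a response, and because Ndufa1 rose most among the members well counted in both states. They are the 250 bases before the RefSeq start, GRCm38.p6, read on the gene's own minus strand, with matches to any searched motif in capitals: Atp5g1 at chr11:96075632-96075881, Atp5g2 at chr15:102671048-102671297, Atp5g3 at chr2:73911327-73911576 and Ndufa1 at chrX:37191239-37191488.
Atp5g1: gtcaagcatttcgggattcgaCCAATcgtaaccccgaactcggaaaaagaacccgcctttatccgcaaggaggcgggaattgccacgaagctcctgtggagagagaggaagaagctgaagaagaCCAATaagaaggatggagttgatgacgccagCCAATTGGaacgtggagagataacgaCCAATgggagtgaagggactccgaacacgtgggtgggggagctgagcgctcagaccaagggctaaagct
Atp5g2: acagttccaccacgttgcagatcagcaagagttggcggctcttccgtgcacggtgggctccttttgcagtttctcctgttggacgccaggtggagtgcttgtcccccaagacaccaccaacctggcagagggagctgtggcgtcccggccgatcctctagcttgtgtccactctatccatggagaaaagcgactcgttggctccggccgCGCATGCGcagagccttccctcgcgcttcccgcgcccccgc
Atp5g3: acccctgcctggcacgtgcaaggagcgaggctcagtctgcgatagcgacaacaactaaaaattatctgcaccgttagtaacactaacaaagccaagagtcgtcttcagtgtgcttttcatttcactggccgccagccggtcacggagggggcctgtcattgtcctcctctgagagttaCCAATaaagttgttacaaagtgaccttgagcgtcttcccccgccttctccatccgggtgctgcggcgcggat
Ndufa1: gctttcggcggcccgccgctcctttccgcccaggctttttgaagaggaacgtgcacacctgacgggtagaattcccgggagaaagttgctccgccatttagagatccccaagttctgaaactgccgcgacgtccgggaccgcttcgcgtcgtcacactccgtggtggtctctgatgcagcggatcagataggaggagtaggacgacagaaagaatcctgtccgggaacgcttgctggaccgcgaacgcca
The capitals mark CCAAT in Atp5g1 and Atp5g3 (or its reverse complement, ATTGG) and CGCATGC (or its reverse complement, GCATGCG), from the palindrome that the factor NRF1 is known to bind, in Atp5g2; Ndufa1 has no match. The 4 motifs were searched on both strands from 250 bases before to 50 after the start, and none contains another. Promoters of 75 of the 90 nuclear members were in the RefSeq table. CGCATGC was in 12 of these 75 (16%) and in 3.64% of all 27025 promoters, and CCGGAAG, an ETS-type site, in 18 (24.0%) and 9.12%. AAGATGG, from a YY1-type site, was in 11 (14.7%) and 6.48%, and CCAAT in 33 (44.0%) and 37.9%. A match describes the letters only.

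The activated-like and marginal zone-like states, which are closer to follicular-like cells, showed small differences, and the activated-like class is mostly clusters 4 and 9, whose nuclear shares differ as given above. In activated-like R848 cells 4 of 87 nuclear members rose and 40 fell, beside 17.1% and 17.9% of all genes (35.0% in either direction), with a median of -0.10 on the log2 scale against 0.00 for all genes. The falls were led by Ndufa6 (-0.40), Uqcrh (-0.33), Ndufs5 (-0.29) and Uqcrfs1, the Rieske iron-sulfur protein (-0.27), and the rises were Ndufaf4 (0.33), Atp5g1 (0.18), Atp5b (0.11) and Cox5a (0.11). Of the mitochondrial members 4 rose, mt-Nd6 (0.54), mt-Nd5 (0.20), mt-Nd4 (0.10) and mt-Cytb (0.09). These counts depended on the scaling: on raw library totals 25 nuclear members rose and 6 fell, beside 34.3% and 6.45% of all genes, and the median of all genes moved by 0.16. Among IL-4+R848 cells 0 mitochondrial members rose and 6 fell, beside 8.54% of all genes that fell.

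In marginal zone-like R848 cells 7 of 86 nuclear members rose and 20 fell, beside 17.2% and 16.8% of all genes (34.1% in either direction), with a median of -0.07 against 0.00. Ndufaf4 (0.42), Ndufa10 (0.26) and Cox5a (0.20) led the rises and Ndufa6 (-0.29), Ndufb6 (-0.28), Ndufb7 (-0.27) and Ndufv1 (-0.27) the falls, all log2. By edgeR's quasi-likelihood test 0 of 13 mitochondrial members were called, and among IL-4+R848 cells, set against the IL-4+R848 follicular-like cells, 12 fell with a median of -0.27, beside 6.42% of all genes that fell.

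The treatment contrast asks what IL-4 given before R848 did within each state. In follicular-like cells the nuclear members barely differed and the mitochondrial members were higher. The nuclear share was 1.85%, 1.91% and 1.90% with R848 and 1.82%, 1.83% and 1.87% with IL-4+R848, while the mitochondrial share was 0.805%, 1.04% and 0.844% against 0.934%, 1.18% and 0.943%. The ratio of mitochondrial to nuclear UMIs rose within every set, from 0.436, 0.545 and 0.444 to 0.512, 0.645 and 0.503, though the ranges over sets overlapped. In edgeR's quasi-likelihood test on the 6 sums, 1 of 88 nuclear members rose and 1 fell, beside 7.79% and 7.69% of all 10860 genes (15.5% in either direction), and both medians were at 0.00 to 2 decimals. Of the 13 mitochondrial members 3 rose and 0 fell, and all 13 had a difference above 0, with a median of 0.24 (log2).

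**Figure D4:**
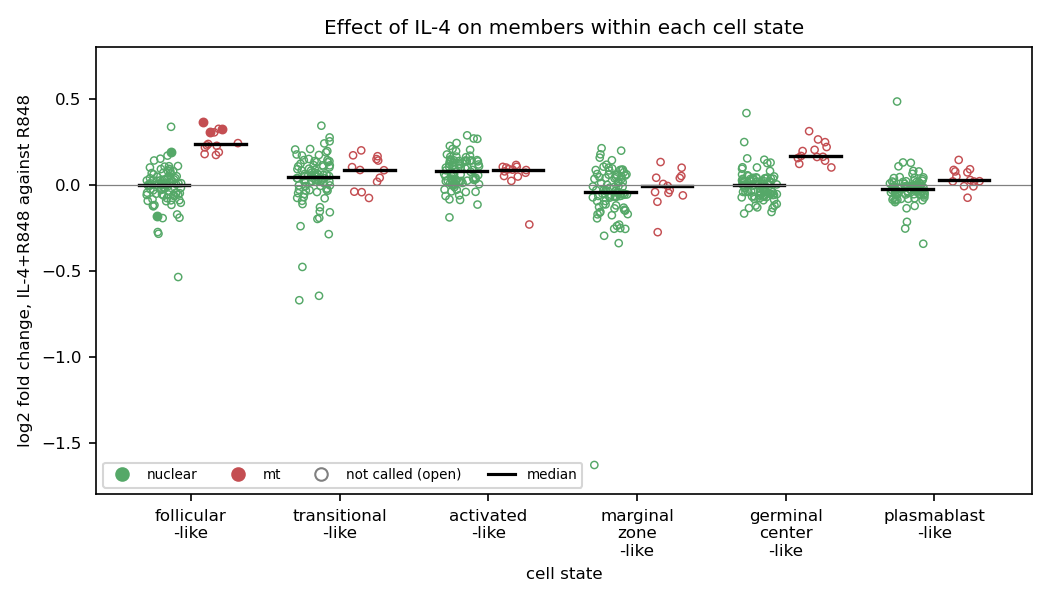
Log2 difference of IL-4+R848 from R848 for each tested member in 6 B cell states, nuclear and mitochondrial members apart, with filled points for adjusted p under 0.05. In follicular-like cells 2 nuclear and 3 mitochondrial members are filled, and none in the other 5 states.

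The mitochondrial members called were all of complex I. The level of mt-Nd4 was 263.8, 319.0 and 271.1 CPM with R848 and 350.3, 409.4 and 339.0 CPM with IL-4+R848, without overlap (log2 0.36, SE 0.0873, edgeR adjusted p = 0.017). The level of mt-Nd5 was 200.8, 259.6 and 223.8 CPM against 261.3, 298.5 and 287.6 CPM, also without overlap (log2 0.31, SE 0.0872, adjusted p = 0.0364). That of mt-Nd3 was 48.44, 60.24 and 54.38 CPM against 62.22, 76.85 and 65.11 CPM (log2 0.32, SE 0.0982, adjusted p = 0.0489). Just past the threshold were mt-Atp6 (log2 0.23, adjusted p = 0.0507) and, further off, mt-Co1 (0.24, adjusted p = 0.132) and mt-Co3 (0.30, adjusted p = 0.16). With the set as a block, which the shared libraries allow, 12 of the 13 mitochondrial members and 3 nuclear members rose and 3 nuclear members fell, beside 10.0% and 9.59% of all genes (19.6% in either direction). With raw library totals 1 mitochondrial member rose, beside 6.38% of all genes, and without set 1 the count was 0 and without set 3 it was 1.

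The nuclear genes called were Cox7b, a small subunit of complex IV, at 175.6, 183.9 and 184.1 CPM with R848 and 196.7, 207.5 and 215.7 CPM with IL-4+R848 (log2 0.19, SE 0.056, edgeR adjusted p = 0.0443), and Uqcrfs1 of complex III, at 212.0, 209.5 and 211.5 CPM against 191.4, 176.4 and 189.9 CPM (log2 -0.18, SE 0.0534, adjusted p = 0.0397). Neither gene's groups overlapped, and without any single set the count of nuclear calls was 0. All 4 genes of complex II lay between -0.09 and -0.12 on the log2 scale and none was called. In cells gated by surface IgD alone, 3 nuclear and 3 mitochondrial members rose and 0 fell, beside 6.74% of all genes that rose; without cluster 2, 1 nuclear and 4 mitochondrial members rose and 9 nuclear members fell, beside 8.69% and 7.69% of all genes. Genes that respond to tissue handling (Fos, Jun, Hspa1a and others of a list of 8) took 0.270%, 0.200% and 0.152% of the UMIs outside immunoglobulin genes in R848 and 0.0832%, 0.0679% and 0.0563% in IL-4+R848 follicular-like cells, and their part in the result was not tested.

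In the other states edgeR's quasi-likelihood test called 0 nuclear and 0 mitochondrial members with IL-4. Of all genes, 2.06% were called in transitional-like, 2.12% in activated-like, 1.48% in marginal zone-like, 0.297% in germinal center-like and 0.0% in plasmablast-like cells. At an unadjusted p under 0.05 the nuclear members numbered 6, 14, 6, 0 and 1 in these states. The mitochondrial members numbered 0 in each. The share of all genes at that looser threshold is not given here, so these counts cannot be set against it. DESeq2 called 0 members of either kind in each state. The mitochondrial medians were 0.09, 0.08, -0.01, 0.17 and 0.03 on the log2 scale. With the set as a block, 1 nuclear member rose in activated-like cells, beside 2.05% of all genes. The IL-4 differences of germinal center-like and plasmablast-like cells from follicular-like cells were also tested directly, as interactions. edgeR called 0 members in either at an adjusted p under 0.05, beside 4.37% and 1.95% of all genes. The mitochondrial medians were -0.07 and -0.20. At an unadjusted p under 0.05 the first had 4 nuclear members and 1 mitochondrial member and the second 1 and 3. The share of all genes at that threshold is not given here either. The other states were not compared with follicular-like cells in this way.

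The genes that serve the respiratory chain without being part of it were read from 7 lists in the same fits. In germinal center-like cells 69 of 78 genes of the mitochondrial ribosome, which translates the mitochondrial subunits, rose and 3 fell (Mrps22 1.81 and Mrpl51 1.62 on the log2 scale), while the RNAs it translates fell as a share. Of all genes, 36.1% rose and 35.8% fell in germinal center-like and 36.0% and 36.9% in plasmablast-like cells, and each list count here and below stands beside those shares. In plasmablast-like cells 51 ribosomal genes rose and 12 fell (Mrpl57 2.57, Mrpl51 2.16). Genes of mitochondrial transcription, RNA processing and translation factors rose in 14 of 25 and fell in 3 in germinal center-like cells (Tsfm 1.17, Tufm 0.87, both elongation factors) and rose in 7 and fell in 5 in plasmablast-like cells (Tfb1m 1.28), the latter shares being below those of all genes in both directions.

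Of 12 electron carriers, coenzyme Q enzymes and inhibitors, 8 rose and 1 fell in germinal center-like cells (Pdss1, which makes the coenzyme Q side chain, 1.86; Cycs, cytochrome c, 1.39), and 8 rose and 2 fell in plasmablast-like cells (Cycs 1.99, Coq9 1.62). TCA cycle genes rose in 12 of 15 and fell in 0 in germinal center-like cells (Idh3a 1.30, Suclg2 0.80), and rose in 7 and fell in 2 in plasmablast-like cells (Mdh2 0.91, Fh1 -1.02). Carriers and pores rose in 7 of 8 in germinal center-like cells (Vdac3 1.06, Vdac1 0.90) and in plasmablast-like cells rose in 2 and fell in 1 (Mpc2, a pyruvate carrier subunit, 1.90). Assembly factors outside the rule were mixed: 17 of 38 rose and 8 fell in germinal center-like cells (Sdhaf1, needed for complex II, -1.02; Uqcc2 0.97), and 14 rose and 9 fell in plasmablast-like cells (Cox17, the copper chaperone of complex IV, 1.45; Cox20 -1.04).

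Regulators of nuclear respiratory genes formed the last list. In germinal center-like cells 6 of 12 tested rose and 3 fell (Gabpa, an ETS factor, 0.67; Myc -0.89; Esrra -0.52). In plasmablast-like cells 0 rose and 7 fell (Myc -2.13, Hif1a -1.66, Esrra -0.89), in the state where 71 nuclear members rose. With IL-4 in follicular-like cells, where 15.5% of all genes were called, Sdhaf1 (-0.67) and Cox20 (-0.33) fell and Taco1, a translation activator for mt-Co1, rose (0.39) among 4 rises and 2 falls of 38 assembly factors, a share close to that of all genes. Of the 13 regulators tested Pprc1 rose (0.50) and Nrf1 fell (-0.27).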

How the data were processed

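RNA and antibody tags of 3 droplet libraries (5′ gene expression) were deposited as UMI counts, with hashtags that give the treatment. The count matrices were made by the authors with Cell Ranger 6.0.1 against mm10, and Seurat 4.1.3 is also named, per the submitters' processing notes. All genes and tags were read as deposited raw counts. Cells were kept with 1 hashtag at 64 UMIs or more and at least 4 times the other plus 1, at least 500 genes and at most 10% mitochondrial UMIs. The 2000 most variable genes gave 30 principal components, a graph of 15 neighbours and Leiden clusters at resolution 1 (scanpy 1.11.5, seed 1). Left out of them were the members, the pathway lists and mitochondrial, ribosomal, T cell receptor and most immunoglobulin genes. Heavy chain constant genes other than Ighd were not left out. UMIs were summed per set, treatment and state, 3 against 3 sums per comparison, and tested in edgeR 4.0.16 (R 4.3.3; filterByExpr, TMM scaling, quasi-likelihood F test, Benjamini-Hochberg over all genes tested). The largest called members, up to 5 in each direction and moving the same way in all 3 sets, a panel and the isoform sets were named, and a few genes that these rules pick are not reported here. The members and lists were chosen with earlier results of these data known.

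Treatment fits had no set block. Both treatments share each library, so the set can pair them. Deviations of same-set follicular-like sums correlated at 0.41, 0.31 and 0.33 over genes and those of different sets at -0.10 at most. Same-set values were 0.16, 0.29 and 0.15 in activated-like, 0.16, 0.13 and 0.07 in transitional-like and 0.08, 0.24 and 0.12 in germinal center-like cells. They were near 0 in marginal zone-like (0.08, 0.05 and -0.06) and plasmablast-like cells (-0.04, 0.00 and 0.01), where pairing was not seen. DESeq2 1.42.0, raw totals, no low-count filter, the set block, surface IgD (100 UMIs or more) or CD138 (50 or more) gates and leaving out each set were alternatives. Tested on simulated data for the IL-4 comparison in follicular-like cells (10860 genes), the fit recovered 51% of changes of 0.5 and 82% of changes of 1 (log2), with 16 false calls. The UMIs per set and treatment were 32364398 to 51829767. Members with near-identical copies elsewhere in the genome may share reads with them. Gene positions are from GENCODE M21 (GRCm38), in which 19 members overlap a gene on the same strand and 36 one on the other.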

Additional observations from a re-analysis of the deposited data

Results flagged for a closer look

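In each result here, all 3 sets moved one way with IL-4 in 1 state and all 3 the other way in another state; these differences between states were not tested. Values are mean log2 ratios of IL-4+R848 to R848 over sets. How many genes and pairs of states were screened is not given here. For mt-Nd3, a core subunit of complex I, the mean was -0.34 in marginal zone-like cells, against 0.32 in follicular-like (a difference of 0.66), 0.11 in transitional-like (0.45), 0.09 in activated-like (0.43) and 0.25 in germinal center-like cells (-0.59, marginal zone-like minus germinal center-like). Each of these mt-Nd3 differences rests on the same marginal zone-like sums, which with IL-4+R848 held only 93, 126 and 110 cells in sets 1 to 3. The activated-like level of mt-Nd3 barely moved in set 3, at 46.864 CPM with R848 and 47.145 CPM with IL-4+R848. For Cox7b of complex IV the mean was 0.20 in activated-like and -0.07 in plasmablast-like cells, a difference of 0.27. In set 2 the plasmablast-like level of Cox7b barely moved, at 312.71 CPM with R848 and 312.21 CPM with IL-4+R848.

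The share of the 13 mitochondrial members moved by 0.19 in follicular-like, 0.09 in transitional-like and -0.06 in marginal zone-like cells, so that marginal zone-like cells differed by 0.25 from follicular-like and by 0.15 from transitional-like cells. The share of the nuclear members moved by 0.04 in transitional-like, -0.03 in follicular-like, -0.04 in marginal zone-like and -0.06 in germinal center-like cells. The differences were -0.0698 (follicular-like minus transitional-like), 0.0769 (transitional-like minus marginal zone-like) and 0.0945 (transitional-like minus germinal center-like).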

How the results depend on the processing

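The counts called in either direction for germinal center-like and plasmablast-like against follicular-like cells stayed within 1.5 times, and the ratios of mitochondrial to nuclear UMIs within 1 SD, under every alternative run. The directions did not: on raw totals 37 plasmablast-like nuclear members rose and 28 fell, in place of 71 and 5. Over all, 257 of 290 alternative counts and ratios stayed in that range and 33 did not. For IL-4 in follicular-like cells the nuclear count of 2 (15.5% of all genes called) became 4 on raw totals (16.4%), 6 with the replicate block (19.6%), 0 by DESeq2 (11.8%), 15 with transitional- and activated-like cells added (14.8%), 10 without cluster 2 (16.4%), 14 in the IgD gate with the replicate block (16.9%) and 0 to 0 without each set in turn. The choices without cluster 2 and with the gate and block together were added after seeing the data. The mitochondrial count of 3 became 1 on raw totals, 8 with no filter, 12 with the block, 12 in the IgD gate with the block and 0 to 2 without each set in turn. In transitional-like cells 1 nuclear member was called without immunoglobulin genes, and in activated-like cells 1 with the block. For activated-like against follicular-like cells the nuclear count of 44 (35.0% of all genes) became 19 without the block (18.1%), 21 by DESeq2 (10.9%) and 17 among IL-4+R848 cells (16.2%), and the mitochondrial count of 4 became 12 on raw totals, 0 without the block, 1 by DESeq2 and 2 to 8 without each set in turn. For marginal zone-like cells the nuclear count of 27 (34.1% of all genes) became 15 without the block (27.4%), 6 by DESeq2 (15%), 7 among IL-4+R848 cells (13%) and 15 to 28 without each set in turn, and the mitochondrial count of 0 became 1 on raw totals, 1 without immunoglobulin genes, 3 with no filter and 12 among IL-4+R848 cells. The share of all genes is not given here for the fits with no filter, without immunoglobulin genes or without each set in turn. For marginal zone-like cells on raw totals it is not given either. The counts from these fits cannot be set against it. The cause of the changes between alternatives was not tested.

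Only the panel and the largest called members were followed as single genes under the alternatives, so the next count does not cover all members. Of their values, 18 changed sign. Among IL-4+R848 cells these included mt-Co1 -0.15, mt-Cytb -0.07, mt-Nd4 -0.17 and mt-Nd5 -0.04 (activated-like), and Cox5a -0.0403, mt-Co1 -0.28, mt-Cytb -0.19 and mt-Nd4 -0.25 (marginal zone-like). On raw totals they included Cox6c 0.09, Cox7a2l 0.02, Ndufa4 0.11, mt-Atp6 0.09, mt-Co2 0.12 and mt-Nd1 0.15 (activated-like), and Atp5e -0.30, Cox4i1 -0.46 and mt-Nd6 -0.48 (plasmablast-like). With 3 sets, the simulated recovery of 51% at a log2 change of 0.5 limits what could be called.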

Other observations

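The unnamed clusters held a wide range of mitochondrial to nuclear UMIs; values here pool both treatments. Cluster 12 (707 cells, a median of 1598 UMIs per cell) had ratios of 1.17, 2.89 and 0.916 in sets 1 to 3. Its nuclear shares were 1.32%, 0.923% and 1.47% of UMIs outside immunoglobulin genes. The median depth of cluster 12 differed between sets, at 1368.5, 1576 and 4601.5 UMIs per cell. Its low pooled depth was one reason it was given no name. The follicular list scored highest in cluster 12, at a mean of 1.05 on the log2 scale with 4 markers raised. Cluster 16 (305 cells, whose leading genes mixed the B precursor gene Igll1 with myeloid genes such as Lyz2 and Mpo) had nuclear shares of 2.76%, 2.94% and 3.04%.

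Cox6a2, the muscle form of Cox6a, was not particular to plasmablast-like cells. Cluster 14 (636 cells) had 33, 22 and 22 UMIs, cluster 16 had 39, 33 and 9, and cluster 18 (202 cells, led by natural killer cell genes) had 6, 0 and 32. Within the plasmablast-like class, the nuclear share was 3.57%, 3.54% and 3.82% in the dividing cluster 15, 3.15%, 3.13% and 3.27% in cluster 8 and 2.62%, 2.60% and 2.67% in cluster 10, without overlap between the 3 clusters.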
